A study of Homo sapiens with 3 samples.

Results

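The NEAT1 and MALAT1 locus on human chromosome 11 was examined in 3 deposited lists of ChIP-seq regions from LNCaP, an established line of androgen-responsive human prostate carcinoma cells. Members were all regions whose centre lay in chr11:65180000-65285000 (hg19), a stretch of 105 kb that holds NEAT1 (65190269-65213011, plus strand), MALAT1 (65265233-65273940, plus strand) and the DNA between them. In all, 21 of the 59983 regions of the series were members. The CK2α list gave 2 of its 13382 regions, the list of RNA polymerase II (Pol II) from DMSO-treated cells 7 of 21819, and that of Pol II from TBBz-treated cells 12 of 24782. NEAT1 and MALAT1 are long noncoding RNAs that stay in the nucleus. NEAT1 is the scaffold of paraspeckles, and its long isoform is made when transcription runs through the early polyadenylation site of the short one. MALAT1 collects in nuclear speckles, and its 3′ end is formed by RNase P, which releases a small tRNA-like RNA named mascRNA. Both genes are transcribed strongly in many cell types. CK2α is one of the catalytic subunits of CK2, a serine/threonine protein kinase.

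Each group was 1 library, and all cells were of passages 40 to 45, kept for 3 days in medium with 5% hormone-stripped serum and then given 100 nM of the androgen dihydrotestosterone (DHT). The CK2α library came from cells with DHT and no other compound, for 2.5 hours by the treatment label and 90 min by the protocol. One Pol II library came from cells given DMSO, labelled as 25 μM, and the other from cells given 25 μM TBBz, an inhibitor of CK2. Both were treated for 2.5 hours, with DHT in the last 1.5 hours. The source name of both Pol II libraries mentions TBBz, and they were told apart by their treatment labels. Depth was 19021404 tags in the CK2α library, 15466579 in the DMSO library and 22345614 in the TBBz library. Without replicates no test between conditions was made. Intervals are exact (Clopper-Pearson) 95% binomial intervals and cover counting error only.

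Sequences of gene starts in the locus are shown because Pol II regions stood at similar distances along it, measured within each build. RefSeq gives MALAT1 more than 1 start, and between NEAT1 and MALAT1 it names 3 genes in the order FAUP4, a transcribed pseudogene, then the long noncoding RNAs ENEMAL and LINC02736 (GRCh38.p14). Each window below runs from 250 bases before to 50 bases after an annotated start, 5′ to 3′ in the direction of the gene, from RefSeq on GRCh38.p14. The windows are chr11:65497488-65497787 (plus strand) for the first MALAT1 start, chr11:65498795-65499094 (plus strand) for the second MALAT1 start and chr11:65477438-65477737 (minus strand) for ENEMAL. Promoter sequences of NEAT1 and FAUP4 were not among those used here, so neither start is shown. Capitals mark matches on either strand to the TATA box, the GC box and the CCAAT box.
MALAT1, the first start: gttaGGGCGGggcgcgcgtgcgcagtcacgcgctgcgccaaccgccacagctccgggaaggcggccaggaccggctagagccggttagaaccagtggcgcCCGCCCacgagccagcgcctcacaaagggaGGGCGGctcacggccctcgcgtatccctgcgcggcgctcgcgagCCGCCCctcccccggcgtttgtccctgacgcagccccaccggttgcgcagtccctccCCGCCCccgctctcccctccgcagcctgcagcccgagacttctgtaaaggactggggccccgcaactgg
MALAT1, the second start: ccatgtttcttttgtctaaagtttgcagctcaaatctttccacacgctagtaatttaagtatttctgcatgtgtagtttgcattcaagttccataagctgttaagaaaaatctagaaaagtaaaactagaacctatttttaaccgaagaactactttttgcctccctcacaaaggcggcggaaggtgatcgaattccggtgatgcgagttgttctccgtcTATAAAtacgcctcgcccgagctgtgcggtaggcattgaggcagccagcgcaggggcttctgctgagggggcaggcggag
ENEMAL: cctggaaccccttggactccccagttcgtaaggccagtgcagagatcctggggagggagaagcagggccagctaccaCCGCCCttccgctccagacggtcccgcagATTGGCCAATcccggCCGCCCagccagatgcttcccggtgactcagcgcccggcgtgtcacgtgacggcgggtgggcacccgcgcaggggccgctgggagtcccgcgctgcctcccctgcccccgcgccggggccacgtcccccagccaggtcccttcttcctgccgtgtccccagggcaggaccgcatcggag

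The MALAT1 starts had different promoter sequences. The window of the first held 73.7% G and C and 37 CpG pairs, against medians of 58.7% and 14 over 35116 RefSeq promoter windows of the same length. That of the second held 46.0% G and C and 14 CpG pairs. The motifs were searched on both strands and were chosen with these data known. TATAAA, the core of the TATA box, was found in the second MALAT1 window, with its first base 30 bases before the start, and was absent from the letters of the first window and of the ENEMAL window. It was present in 11.5% of all promoter windows. The GC box, searched as GGGCGG, occurred 5 times in the first MALAT1 window and 2 times in the ENEMAL window, and 45.0% of all windows held it. The LINC02736 window, which is not printed, held it 191 bases before its start on the minus strand. The CCAAT box, searched as CCAAT, occurred 2 times in the ENEMAL window, as a pair on opposite strands, and 34.6% of all windows held it. AGAACA, a short element that forms part of androgen receptor sites, was found in the second MALAT1 window, 41 bases before the start on the minus strand. It was also found in the LINC02736 window, 181 bases before its start on the minus strand, and in 14.8% of all windows. No motif overlapped another. A match describes letters and not a bound site.

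Pol II at the start of NEAT1 stood at the head of both Pol II lists. With DMSO the region was chr11:65190215-65190415, centred 46 bp after the annotated start and at place 11 of 21819. With TBBz it was chr11:65190268-65190468, centred 99 bp after the start, and it was the region that opens the list, place 1 of 24782. The place in a list is assumed to follow the strength of the signal, since no tag count per region was analysed here. It gives a rank without a magnitude, and since the lists differ in length no shift of place is read as a change. The regions overlapped by 148 bp, and the TBBz centre lay 53 bp farther into the gene. No CK2α region was found at this start: the nearest CK2α centre was 31999 bp away, in the DNA between the genes.

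The rest of NEAT1 held no region in any list. From the end of the TBBz region at the start, the next region of any list began 31.7 kb later, at chr11:65222168, which leaves 99.1% of the 22.7 kb gene without a region. The body of NEAT1, taken from 1 kb after its start to 1 kb before its end, had 0 regions in each of the 3 lists. The stretch within 1 kb of its end, where the long isoform stops, also had 0 in each list. On the other side, the last DMSO region before the start was centred 36118 bp from it and the last TBBz region 36124 bp from it. Absence from these lists is not absence of Pol II: the peak caller required 4-fold signal over the 10 kb around a candidate, a setting that passes over Pol II spread evenly along a gene.

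Such isolation was found in a minority of leading Pol II regions. The region at the NEAT1 start was 32378 bp from its nearest neighbour in the DMSO list, and 19 of the first 100 DMSO regions were at least as far from theirs (median 9894 bp). In the TBBz list the distance was 32212 bp, and 12 of the first 100 were at least as far (median 6378 bp). A CK2α centre lay within 1 kb of 71 of the first 100 DMSO regions and of 76 of the first 100 TBBz regions. The NEAT1 start was among the 10 DMSO and the 11 TBBz regions with CK2α at least as far as it was there (31953 and 31900 bp between centres).

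**Figure D1:**
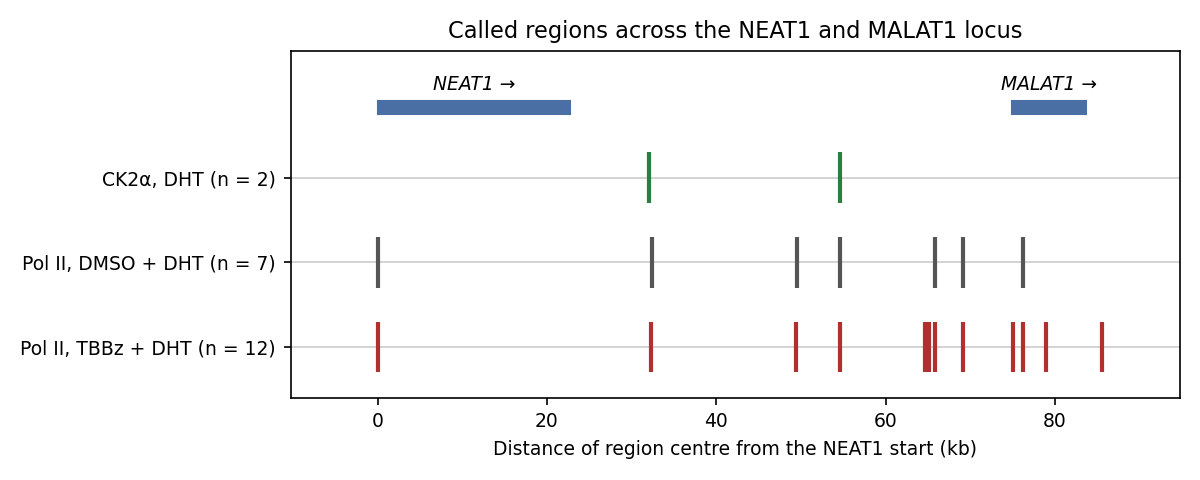
Centres of all 21 regions of the locus against their distance from the NEAT1 start in kb, 1 row per library, with the genes as bars and arrows for the direction of transcription. NEAT1 carries a Pol II region at its start in both treatments and none further on, and both CK2α regions lie between the genes. Of the 12 TBBz regions 5, all in the right-hand part of the map, have no overlapping DMSO region. The other 7 (58.3%) overlap one, against 65.0% of the whole TBBz list.

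Pol II regions on MALAT1 stood near its hg19 start with TBBz alone and further into the gene in both treatments. The DMSO list had 1 region on the gene, chr11:65266448-65266648, at place 29 of 21819 and centred 1315 bp after the hg19 start of MALAT1. The TBBz list had 3 regions on the gene. The first, chr11:65265186-65265386, was centred 53 bp after the hg19 start and stood at place 1706 of 24782. The next, chr11:65266441-65266641, was centred 1308 bp after it, stood at place 314 and overlapped the DMSO region by 194 bp. The last, chr11:65269069-65269269, lay 3936 bp into the gene at place 6270. In GRCh38.p14 the second RefSeq start of MALAT1 lies 1307 bp after the first, so the shared Pol II region stood at about the distance of the TATA-bearing start printed above. These distances were each measured within their own build, and no position was converted. Whether the shared region lies at that start was not determined.

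The DMSO list lacked a region at the hg19 start of MALAT1, its nearest centre being 1262 bp from that of the TBBz region. Of the TBBz regions in the first 10% of the list, where it stood, 90.0% overlapped a DMSO region. Here too, absence from the DMSO list is not absence of Pol II. The DMSO region at place 29, centred 1315 bp after this start, lay within the 10 kb over which a candidate needed 4-fold signal. Whether a DMSO candidate at the start was removed by this filter was not tested. The TBBz region 3936 bp into the gene had its nearest DMSO centre 2621 bp away. In its 10% of the list, 82.7% of TBBz regions overlapped a DMSO region. Within 1 kb of the MALAT1 end, where mascRNA is cut off, no list had a region. Beyond it, the TBBz list had chr11:65275770-65275970, centred 1930 bp after the annotated end, at place 13628, with the nearest DMSO centre 9322 bp away. In its 10% of the list, the share overlapping a DMSO region was 71.2%. RefSeq also names TALAM1, a transcript antisense to MALAT1, and these regions carry no strand, so that Pol II on the sense and on the antisense transcript cannot be told apart. MALAT1 had no CK2α region. The nearest CK2α centre to its start was 20365 bp upstream.

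Per length, MALAT1 held more Pol II regions than NEAT1. Over the whole gene there were 1.15 DMSO and 3.45 TBBz regions per 10 kb on MALAT1, and 0.440 per 10 kb in each list on NEAT1. These densities rest on 1 and 3 regions against 1 and 1. The DNA between the genes, 52.2 kb, held 0.957 DMSO, 1.34 TBBz and 0.383 CK2α regions per 10 kb.

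Both CK2α regions of the locus lay between the genes. One overlapped Pol II, and the other had a DMSO Pol II centre within 500 bp without overlap. Of all CK2α regions, 66.8% had a DMSO Pol II centre within that distance, a share that includes the 36.8% that overlapped DMSO Pol II. The leading CK2α region of the locus, chr11:65244768-65244968, was at place 187 of 13382. It overlapped the DMSO Pol II region chr11:65244806-65245006 (place 1062) by 163 bp and the TBBz region chr11:65244781-65244981 (place 641) by 188 bp, with centres 38 and 13 bp apart. This was the only site of the locus where regions of all 3 lists overlapped, and it was the earliest of the intergenic Pol II regions in both Pol II lists. It lay 20365 bp before the hg19 start of MALAT1 when measured at the CK2α centre. The start of ENEMAL lies 20251 bp before the first MALAT1 start in GRCh38.p14, so the site stood at about the distance of the CCAAT-bearing promoter printed above. Whether it is the same position was not determined, since no hg19 annotation was used.

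The other CK2α region, chr11:65222168-65222368, stood at place 7955 and overlapped no Pol II region. The TBBz region chr11:65222480-65222680 (place 6337) was centred 312 bp from it and the DMSO region chr11:65222593-65222793 (place 10078) 425 bp from it, both on the side of MALAT1. The centres thus followed the order CK2α, TBBz, DMSO along the chromosome. The site lay 9257 bp after the end of NEAT1 at its CK2α centre and was the first of any list after that gene.

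Pol II regions without CK2α made up the rest of the intergenic DNA. The DMSO list had chr11:65239646-65239846 (place 8291), chr11:65256000-65256200 (place 9760) and chr11:65259355-65259555 (place 7268). The TBBz list had a region at each of these, chr11:65239606-65239806 (place 9906), chr11:65256020-65256220 (place 11838) and chr11:65259361-65259561 (place 11395). It had 2 more, chr11:65254801-65255001 (place 12436) and chr11:65255329-65255529 (place 12086), so that 3 TBBz regions stood in a row with centres 528 and 691 bp apart. The peak caller allows no peaks closer than 500 bp. The DMSO list had a region only at the one of these nearest to MALAT1, and its centre lay 1199 and 671 bp from the additional TBBz regions. The start of LINC02736 lies 9652 bp before the first MALAT1 start in GRCh38.p14, and the centres of the 3 TBBz regions lay 10332, 9804 and 9113 bp before the hg19 start.

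**Figure D2:**
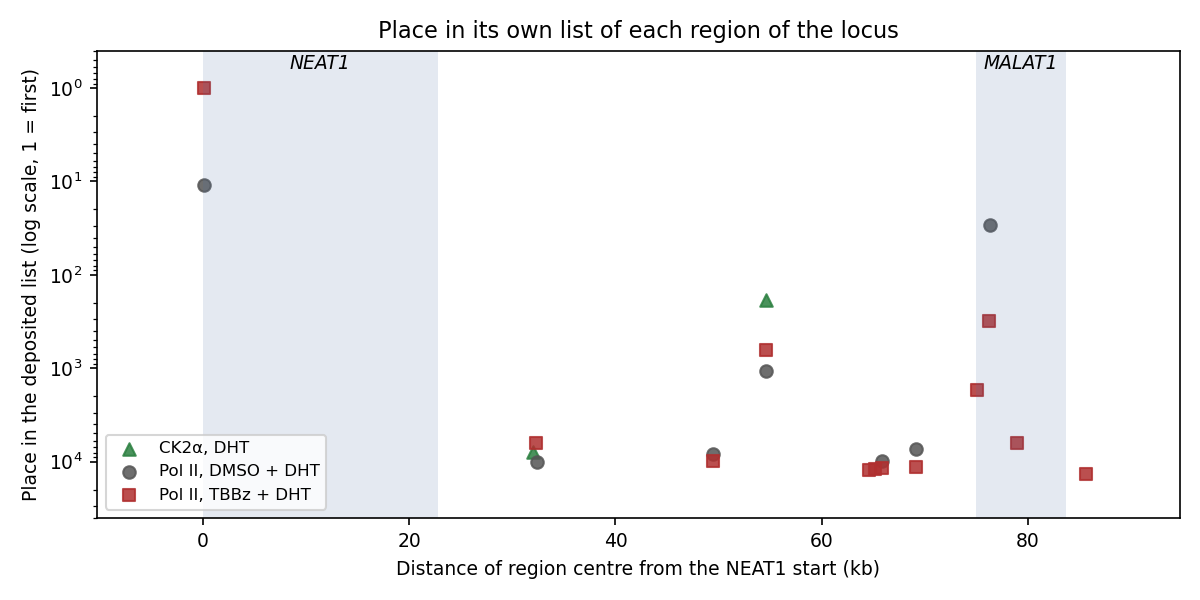
Place of each region in its own deposited list (log scale, the head of the list at the top) against distance from the NEAT1 start in kb, with the genes shaded. The NEAT1 start is at places 1 and 11, the shared region on MALAT1 at 29 and 314, the site shared with CK2α at 187, 641 and 1062, and the other Pol II regions, apart from the TBBz region at the hg19 start of MALAT1 at 1706, lie at place 6270 or later.

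The regions of the locus fell into a leading and a trailing set in each Pol II list. This split describes the places and was not tested. With DMSO, 2 of 7 members stood among the first 100 regions, which are 0.458% of the list. The third stood at place 1062, while the remaining 4 lay between places 7268 and 10078. With TBBz, 1 of 12 stood among the first 100 (0.404% of the list) and 3 among the first 1000 (4.04%). There was 1 more at place 1706, and the remaining 8 lay between places 6270 and 13628. The median member stood at 33.3% of the DMSO list and at 32.8% of the TBBz list. The CK2α members were at places 187 and 7955 of 13382.

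All DMSO Pol II regions of the locus were found again with TBBz. The count was 7 of 7 (100%, interval 59.0 to 100%), against 73.8% of the whole DMSO list. In the reverse direction 7 of 12 TBBz regions overlapped a DMSO region (58.3%, 27.7 to 84.8%), against 65.0% of the whole TBBz list. Both intervals include the share of the whole list. The DMSO count could not have stood above it, since 7 of 7 is the highest count possible. The intervals take the regions of the locus as independent, which was not tested. Of the 2 CK2α regions 1 overlapped DMSO Pol II (interval 1.26 to 98.7%), against 36.8% of all CK2α regions. Of the 7 DMSO regions 1 overlapped CK2α (14.3%, 0.361 to 57.9%), against 22.6% of all DMSO regions. For the latter pair too, the intervals include the shares of the whole lists. With 2 CK2α regions any count would give such an interval, so it decides nothing. With 7 DMSO regions no lower count could have stood apart either.

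The shared Pol II regions were offset by little and in no common direction. At the 7 shared sites the distance between the DMSO and the TBBz centre was 6 to 113 bp, with a median of 25 bp, against a median of 19 bp (quartiles 8 and 43 bp) over all 16112 overlapping pairs. The TBBz centre lay on the MALAT1 side of the DMSO centre at 3 sites and on the NEAT1 side at 4. The offset at the NEAT1 start, 53 bp downstream, and that at the site with the later CK2α region, 113 bp upstream, were above the upper quartile. At the shared region on MALAT1 the centres were 7 bp apart.

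**Figure D3:**
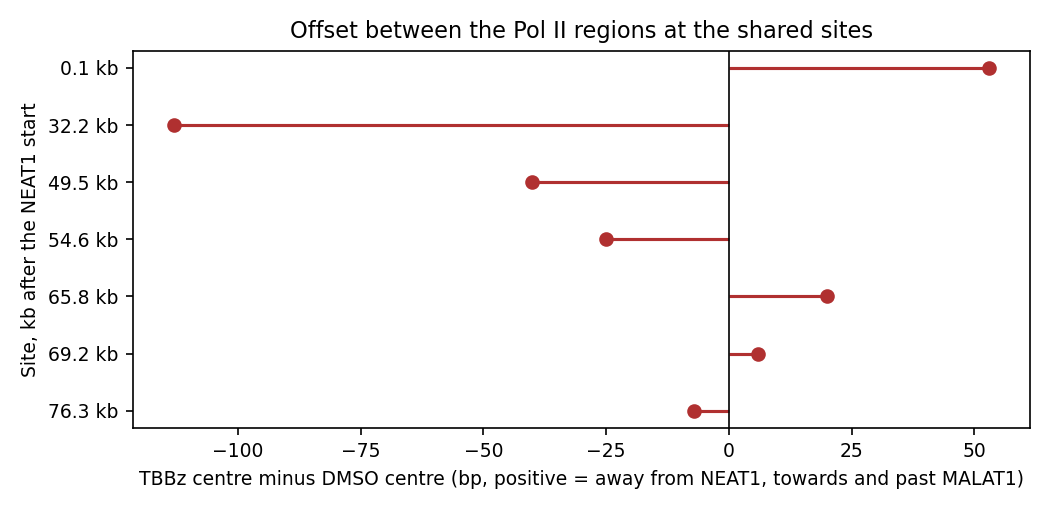
Distance in bp from the DMSO to the TBBz Pol II centre at each of the 7 shared sites, ordered from NEAT1 to MALAT1 and named by kb after the NEAT1 start. Values run from -113 bp at 32.2 kb to 53 bp at the NEAT1 start, and the last 3 sites lie within 20 bp of 0.

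The locus was rich in Pol II regions by the standard of the genome, and less so in CK2α. When the genome was cut into 29436 windows of 105 kb, 0.846% held at least 7 DMSO regions, 0.0747% at least 12 TBBz regions and 11.6% at least 2 CK2α regions. An excess of at least 5 TBBz over DMSO regions was found in 0.180% of windows. The window of the locus was placed around its genes, whereas the others were placed without regard to genes, and most of them held no region. The share of TBBz among the Pol II regions of the locus was 12 of 19 (63.2%), against 53.2% over the whole lists. The lists are not independent, since all 7 DMSO regions recur with TBBz, so no interval is given for this share and the difference of 12 against 7 was not tested. The TBBz library also held 1.44 times as many tags, and 12.6% of its tags lay in regions, against 6.79% with DMSO. The 4-fold local filter removed 25346 of 47165 DMSO candidates and 13517 of 38299 TBBz candidates. The part of depth, of the share of tags in regions and of the filter in this difference was not tested.

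A further comparison was added after the data were seen. In the 121 windows with exactly 7 DMSO regions, the median number of TBBz regions was 7 (quartiles 6 and 8), and 2 windows held at least the 12 of the locus. The median number of CK2α regions in these windows was 3, and 43 of the 121 held no more than the 2 of the locus. In all, 15 windows of the genome held at least as many regions as the locus in each of the 3 lists. The densest were chr17:7140001-7245000 with 4 CK2α, 11 DMSO and 15 TBBz regions, chr19:49560001-49665000 with 7, 10 and 13, and chr19:12810001-12915000 with 3, 12 and 13, in the same order of lists. Next came chr17:7980001-8085000 with 4, 10 and 13 and chr19:56070001-56175000 with 5, 10 and 12.

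**Figure D4:**
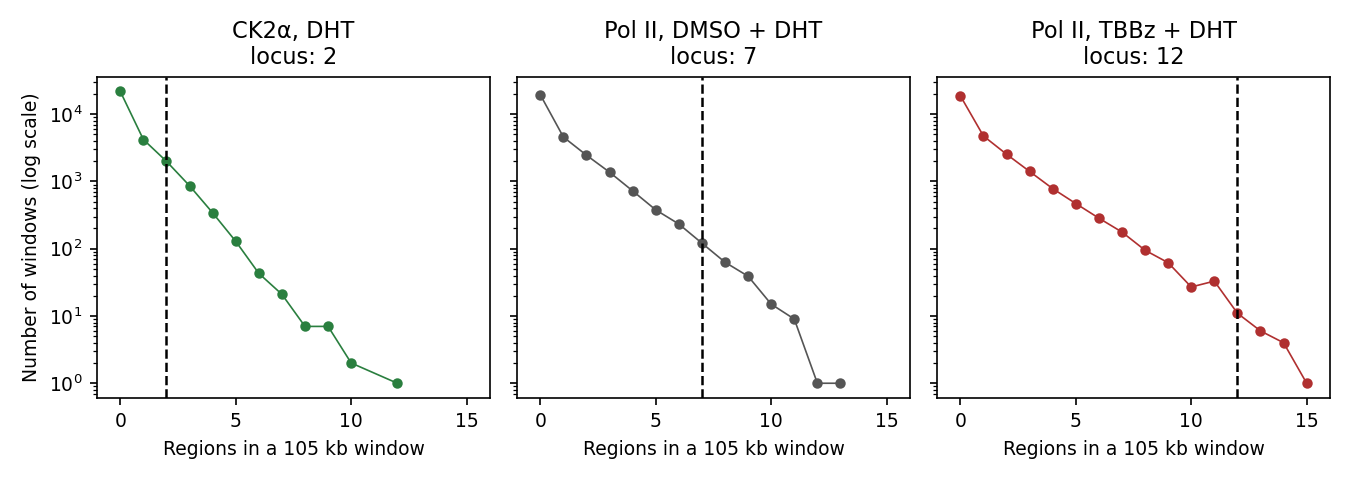
Number of genome windows (log scale) against the number of regions in a 105 kb window, for each list, with a dashed line at the count of the locus. The line stands at 2 for CK2α, within the bulk of occupied windows, at 7 for Pol II with DMSO and at 12 for Pol II with TBBz, close to the highest window count of 15.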

How the data were processed

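Per the submitters' processing notes, reads were aligned with Bowtie to hg19 and peaks were called with HOMER. Their versions: not given in the sources used here. HOMER was run on each library alone, per the file headers, in its factor style, with peaks of 200 bp centred on the tag maximum and at least 500 bp apart. The false discovery rate was 0.001, and no control library is named. Candidates under 4-fold over the surrounding 10 kb were removed. The deposited score is 1 for every region and ranks nothing. The other deposited columns used were the start, which counts from 0 and was raised by 1, and the end.

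Start and end segments reach 1 kb to either side, overlap means at least 1 bp, and genome windows were laid up to the last region of each chromosome. The rule for named regions took all regions of a segment that holds 5 or fewer and the first 3 in list order otherwise, and the remaining TBBz regions between the genes were added after their values were seen. As the windows most like the locus it took up to 5 with at least as many regions in every list. The window, the gene coordinates, the members and the lists were chosen with earlier results of these data known. Scripts ran in Python 3.11.15 with SciPy 1.17.1 for intervals, pandas 2.3.3 and NumPy 2.4.6 for tables and Matplotlib 3.10.9 for figures, and were tested on simulated data. Mean depth in regions was 23.5, 48.1 and 114 tags per region for CK2α, DMSO and TBBz.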

Additional observations from a re-analysis of the deposited data

How the results depend on the processing

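Of 122 alternative values, all but 17 stayed within their limits (1.5 times a count, or the counting interval of a share). Part of them could not move: a count of 0 stays 0 in the first 50% of a list. Shortening the longer Pol II list leaves the CK2α and DMSO counts as they are. The number that stayed is thus not a measure of stability. With starts and ends of 2 kb either side, the Pol II region shared on MALAT1 counted as part of the start: MALAT1 then had 1 DMSO and 2 TBBz regions at its start, 0 DMSO and 1 TBBz in its body, 1 TBBz at its end and 0 beyond. In the first 50% of each list CK2α had 1 region in the locus, also 1 between the genes, and TBBz had 0 after MALAT1. CK2α regions with DMSO Pol II came to 100% with centres within 500 bp (66.8% of all CK2α regions), with regions extended by 1 kb (80.8%), with centres within 2 kb (80.6%, chosen after the data were seen) and in the first 50% of the lists, where 1 region is left (35.5%). Among windows with at least 1 region, the shares were 29.1% for CK2α, 2.13% for DMSO, 0.188% for TBBz and 0.453% for the excess of TBBz, because fewer windows were counted. With regions extended by 1 kb, 10 of 12 TBBz regions had a DMSO partner, against 79.1% of all TBBz regions. No paired analysis was possible because there is a single library in every group. With 2 to 12 regions a list, counting error limits every share of the locus.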
